A study of Mus musculus with 12 samples.

Results

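Solute carrier (SLC) genes encode membrane proteins that move amino acids, sugars, ions, metals, nucleotides and metabolites across the plasma membrane and the membranes of lysosomes and mitochondria. The genes described here are the listed genes whose symbol has the form Slc, a family number, the letter a and a member number, and whose mean over all 12 libraries was 5 CPM or more, where CPM is a count divided by the size of its library. They were chosen by that measured mean level, on which no test is given, and not by any difference between groups. There were 136 such genes among 177 listed symbols of that form and 12339 listed genes in all, and 41 of those symbols fell below the threshold. The form takes in 42 families. It leaves out carriers with another subfamily letter, and it takes in 2 genes that are not carriers and share only a symbol root with one, Slc4a1ap and Slc7a6os. The remaining 134 were sorted by family number into 10 substrate classes.

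The cells were macrophages drawn into the peritoneum of mice with sterile thioglycolate and collected by lavage, and RNA was measured by sequencing in 12 libraries. All mice, controls included, received the same adeno-associated virus at 8 weeks of age. The 4 groups, with 3 libraries each, were wild type (WT) mice and mice labelled meKO, each either kept on chow or given a high-fat diet (HFD), and cells were collected 4 weeks later. The label meKO is read from the series title as a knockout in myeloid cells of Prkce, the gene of protein kinase C epsilon, and the labels do not name the line that drives the recombination. The labels do not say that each library came from its own mouse, so p-values measure the spread between these libraries, which may be technical. In bulk RNA, fewer cells of a type and less RNA per cell cannot be told apart.

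Carriers of macrophages are known above all from metabolism after engulfment. Amino acids, nucleosides, heme and sugars freed from digested cells leave the lysosome through carriers in its membrane, iron from red cells leaves the macrophage through ferroportin (Slc40a1), and carriers of the Slc25 family link cytosol and mitochondria. Amino acid carriers at the lysosome also feed the mTORC1 nutrient sensor, and genes of lysosomal function are commonly driven through an E-box recognised by the MiT/TFE factors.

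Total counts ran from 25844958 to 37282772 per library, and SLC genes held between 0.702% and 0.892% of them. Prkce, the gene named by the series title, was at 2.01 to 4.44 CPM in WT libraries and at 0.95 to 1.78 CPM in meKO libraries, ranges that did not overlap. Of all genes, 0.421% separated the 12 libraries by genotype in this way. Prkce was not called between genotypes on chow (-1.47, edgeR, adjusted p = 0.0794) or on HFD (-0.8, adjusted p = 0.989). Macrophage markers summed to between 4969 and 6231 CPM, and 0 of 5 liver markers were listed. Markers of resident large peritoneal macrophages summed to 203 to 586 CPM in WT chow, 973 to 1561 in WT HFD, 437 to 1040 in meKO chow and 605 to 1420 in meKO HFD, higher on HFD in WT with no overlap. Cd5l made up most of that sum (155, 506 and 490 CPM in WT chow, 911, 1346 and 1486 in WT HFD), and 0 of the 6 markers were called in WT. Another 2 of them had lower means in WT HFD, with overlap, Timd4 at 11, 20.1 and 31 CPM in WT chow and 10.7, 14 and 14.8 in WT HFD, and Selp at 6.22, 16.8 and 17.4 against 4.69, 5.72 and 8.6. Markers of mesothelium and fibroblasts were at 53.2 to 93.8 CPM in WT chow, 97.5 to 143 in WT HFD, 53.8 to 98.2 in meKO chow and 115 to 148 in meKO HFD, also without overlap between diets in either genotype, and 3 of 12 listed markers were called higher in WT. B cell markers were lower on HFD in WT without overlap (106 to 163 CPM on chow, 51.9 to 87.2 on HFD, 2 of 5 listed markers called), as were dendritic cell markers (33 to 53 CPM and 19 to 28.5, 1 of 7 called). In meKO both overlapped between diets, at 72.2 to 159 and 55.5 to 110 CPM for B cells and 23.9 to 46.7 and 24.6 to 38.4 CPM for dendritic cells. The part of these cells in the diet effects was not tested. WT chow replicates 1 and 2 stood apart by transcript length. Over all genes, Spearman's rho between a gene's deviation from its mean and its transcript length was 0.64 and 0.68 there, -0.04 in WT chow replicate 3 and -0.46 to 0.13 in the other libraries. Lyz2 was at 30482 to 53835 CPM in WT libraries and below that range in every meKO library. It was not called between genotypes on chow or HFD (edgeR, adjusted p = 0.506 and 0.999). One library, meKO chow replicate 2, had Lyz2 at 69.3 CPM, while the other meKO libraries had 16293 to 21309 CPM. That library had Cd5l at 991 CPM, against 390 and 385 in the other meKO chow libraries, while Timd4 (8.22) and Selp (2.47) were lower than in those.

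The E-box letters CACGTG (the same on both strands) were present in a larger share of promoters of SLC genes than of listed genes as a whole. Sequence upstream of the start is shown for 4 of the 8 SLC genes that held them and were called lower on HFD below. These are examples, and another 15 promoters with the letters belong to SLC genes that were not called. The bases come from RefSeq, build GRCm38.p6, end at or before the annotated start, and are printed 5′ to 3′ on the strand of the gene with each E-box in capitals. RefSeq promoters, from 250 bases before the start to 50 after it, matched 103 of the 136 genes and 9553 of the listed genes.
Slc36a1, chr11:55204249-55204339, plus strand: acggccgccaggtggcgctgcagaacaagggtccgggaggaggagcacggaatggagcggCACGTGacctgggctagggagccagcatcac
Slc35a5, chr16:45158675-45158823, minus strand: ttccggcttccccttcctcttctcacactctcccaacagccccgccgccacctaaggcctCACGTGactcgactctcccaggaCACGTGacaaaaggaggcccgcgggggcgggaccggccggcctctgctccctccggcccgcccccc
Slc39a8, chr3:135825526-135825651, plus strand: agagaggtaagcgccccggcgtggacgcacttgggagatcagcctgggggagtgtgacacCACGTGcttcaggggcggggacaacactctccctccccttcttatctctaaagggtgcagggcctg
Slc25a1, chr16:17928393-17928469, minus strand: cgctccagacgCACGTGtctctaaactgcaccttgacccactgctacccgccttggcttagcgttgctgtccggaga
The capitals lie 25 bases before the start in Slc36a1, which encodes a proton-coupled amino acid carrier of the lysosome, and 233 bases before it in Slc25a1, the mitochondrial citrate carrier. Slc35a5, of the nucleotide sugar carriers, holds 2 such words. Across SLC genes, 23 of 103 promoters held CACGTG (22.3%), against 12% of the listed genes, a difference that was not tested. Another 3 words were searched on both strands: TGATGNAAN was in 4 SLC promoters (3.88%, against 2.75% of listed genes), TGACNNNGC in 24 (23.3% against 17.3%) and TCACNCCAC in 2 (1.94% against 1.31%). In SLC promoters, 1 match of CACGTG overlapped TGATGNAAN and 2 overlapped TGACNNNGC. A match is a description of the letters and not a bound site.

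The level of a carrier was compared between genes per length of transcript, as CPM per kilobase. SLC genes were at a median of 8.61 CPM per kilobase, a level that the threshold of 5 CPM helps to set. The highest was Slc25a5, the ADP/ATP translocase of the mitochondrial inner membrane, at 305, followed by Slc25a3, the mitochondrial phosphate carrier, at 185. Next stood 2 phagosomal or lysosomal carriers, Slc11a1, which pumps iron and manganese out of the phagosome, at 155 and Slc15a3, a peptide and histidine carrier, at 141. Slc66a3 (103), Slc3a2, the heavy chain that partners with amino acid carriers (89.9), and the zinc importer Slc39a1 (85.3) followed. Slc25a11, the oxoglutarate carrier, was at 70.2 and the sugar-phosphate carrier Slc37a2 at 53.2. Slc7a11, the cystine carrier, and Slc7a5, a light chain of Slc3a2, fell below the threshold, at group means of 1.21 to 2.07 CPM and 0.477 to 0.671 CPM. In CPM, 15 SLC genes were at 100 or more and 13 under 10, and the 10 highest held 35.8% of all SLC counts. The 3 genes just inside the threshold were Slc39a14 (5.09 CPM), Slc9a7 (5.55) and Slc16a13 (5.59), and the 3 just outside it were Slc2a3 (4.66), Slc46a1 (4.5) and Slc37a1 (4.49).

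**Figure D1:**
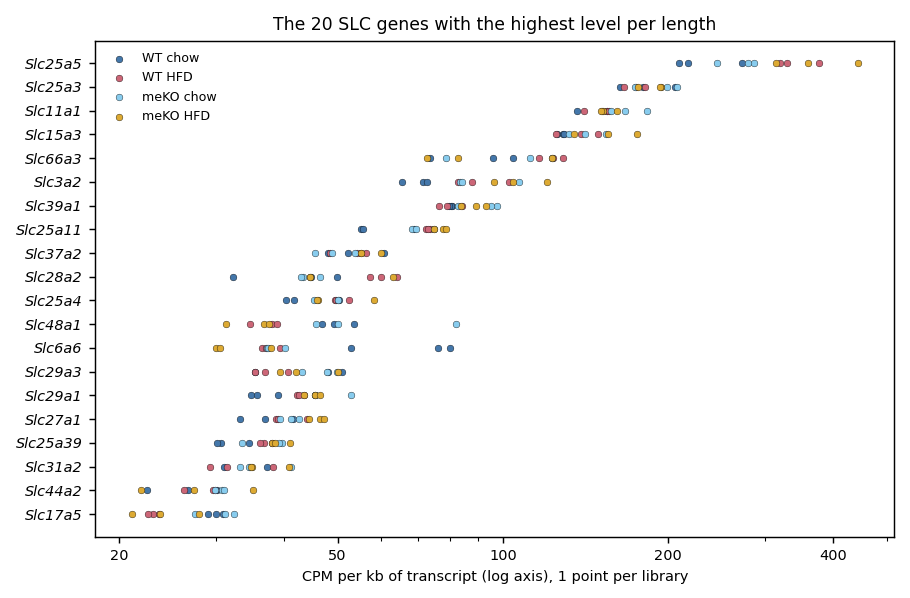
Level of the 20 SLC genes with the highest mean, as CPM per kilobase of transcript on a log axis, with 1 point per library coloured by group. Slc25a5 reached the highest values, and 2 WT chow points of Slc6a6 and 1 meKO chow point of Slc48a1 lay to the right of their other libraries.

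The averaged diet comparison asked which carriers differed between HFD and chow over both genotypes. In it, 40 of 136 SLC genes were called at an adjusted p under 0.05 by edgeR's quasi-likelihood test (29.4%), 8 higher and 32 lower on HFD. Of all listed genes, 30.2% were called, with 14.9% higher and 15.3% lower, so that SLC genes were called about as often as other genes. The share of SLC calls that were higher was smaller than among all calls, but this split was not tested and moved with the scaling. It was 8 of 40 as reported, where 49.3% of all calls were higher. With scaling to library totals it was 4 higher and 37 lower, where 38.1% of all calls were higher, and with offsets for length and GC content 16 higher and 23 lower, where 52.4% were. SLC genes had a median log2 difference of -0.10, against -0.03 for all genes. With the length and GC offsets both medians were -0.01. Amino acid carriers (17 genes), ion carriers (18) and metal carriers (23) held 20 of the 32 lower calls. Mitochondrial carriers (30) held 4 of the 8 higher calls and 4 lower ones, or 3 higher and 4 lower with the length and GC offsets. The spread of calls over classes was not tested.

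**Figure D2:**
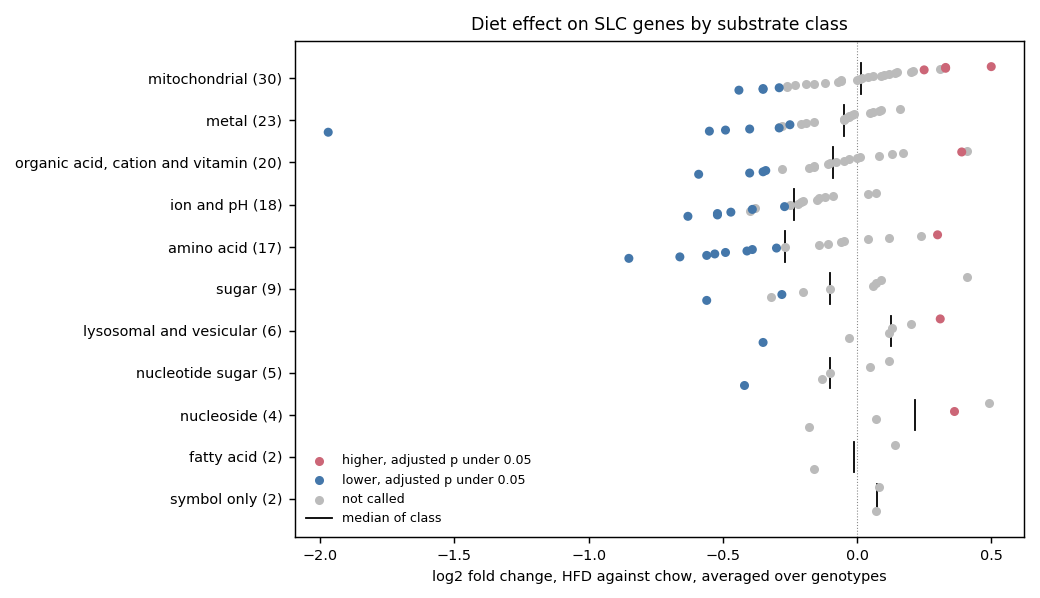
Log2 fold change on HFD against chow, averaged over genotypes, for each SLC gene by substrate class (number of genes in brackets), with the class median as a line and calls at an adjusted p under 0.05 in colour. Lower calls lay in 8 classes, and the lowest value, -1.97, was Slc40a1.

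Amino acid carriers fell in 8 of 17 cases and rose in 1 on HFD averaged over genotypes, with a median of -0.27 (6 lower, 1 higher and a median of -0.15 with the length and GC offsets). Slc43a2, a carrier of branched-chain and other large neutral amino acids, was at 212, 234 and 156 CPM in WT chow and 99.5, 112 and 83.5 in WT HFD. In meKO it was at 135, 123 and 139 CPM on chow and 107, 64.7 and 76.7 on HFD. Every chow library lay above every HFD library, and 5.76% of all genes separated the 12 libraries by diet in this way. Slc43a2 fell by 0.85 ± 0.13 on the log2 scale (SE; edgeR, adjusted p = 0.00312).

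Slc36a1, which carries small neutral amino acids out of the lysosome with protons, was at 69.2, 76.7 and 55.2 CPM in WT chow and 36.2, 39.9 and 30.9 in WT HFD. In meKO it was at 49.6, 38.8 and 47.2 CPM on chow and 36.5, 32.3 and 33.7 on HFD. Within each genotype the diets did not overlap. Slc36a1 fell by 0.66 ± 0.10 (edgeR, adjusted p = 0.00312). Its relative Slc36a4 fell by 0.41 ± 0.13 (adjusted p = 0.0293), with chow and HFD overlapping in both genotypes.

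Slc7a8, a light chain that carries neutral amino acids with Slc3a2, was at 79.7, 75.5 and 60.4 CPM in WT chow, 37.9, 51.3 and 45.7 in WT HFD, 59.3, 62.3 and 59.5 in chow-fed meKO and 44.6, 35.6 and 59.1 in HFD-fed meKO. The highest HFD library lay just below the lowest chow library. Slc7a8 fell by 0.53 ± 0.12 (edgeR, adjusted p = 0.00984). Its partner chain moved the other way: Slc3a2 was at 201, 205 and 184 CPM in WT chow, 233, 247 and 289 in WT HFD, 235, 301 and 237 in chow-fed meKO and 271, 338 and 294 in HFD-fed meKO. The WT diets did not overlap and the meKO diets did, and Slc3a2 rose by 0.30 ± 0.09 (adjusted p = 0.0256). Of the Slc38 family, 3 of 6 members fell, Slc38a10, Slc38a1 and Slc38a6. Slc38a1, a sodium-coupled glutamine carrier, was at 70.4, 68.9 and 45.8 CPM in WT chow and 34.2, 39.5 and 35.3 in WT HFD, but at 40.7, 36 and 40.6 in chow-fed meKO and 37.7, 39.4 and 39.3 in HFD-fed meKO. Only the WT chow libraries were high. Slc38a2, which is induced in amino acid shortage, stood at group means of 94.6, 82.4, 89.4 and 70.8 CPM and was not called. Slc1a5, a neutral amino acid exchanger that takes up glutamine, was at 20, 16.6, 17 and 16.8 CPM and was not called either.

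Slc6a6, the taurine carrier, had a pattern in which 1 group stood apart. It was at 471, 496 and 327 CPM in WT chow, 225, 243 and 229 in WT HFD, 248, 230 and 231 in chow-fed meKO and 234, 186 and 189 in HFD-fed meKO. All 3 WT chow libraries were above all the others, and the other 3 groups overlapped. Averaged over genotypes, Slc6a6 fell on HFD by 0.56 ± 0.10 (edgeR, adjusted p = 0.00479). The difference was -0.89 ± 0.14 in WT (adjusted p = 0.00644) and -0.22 in meKO, and the interaction, 0.67 ± 0.20, did not pass (adjusted p = 0.773).

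**Figure D3:**
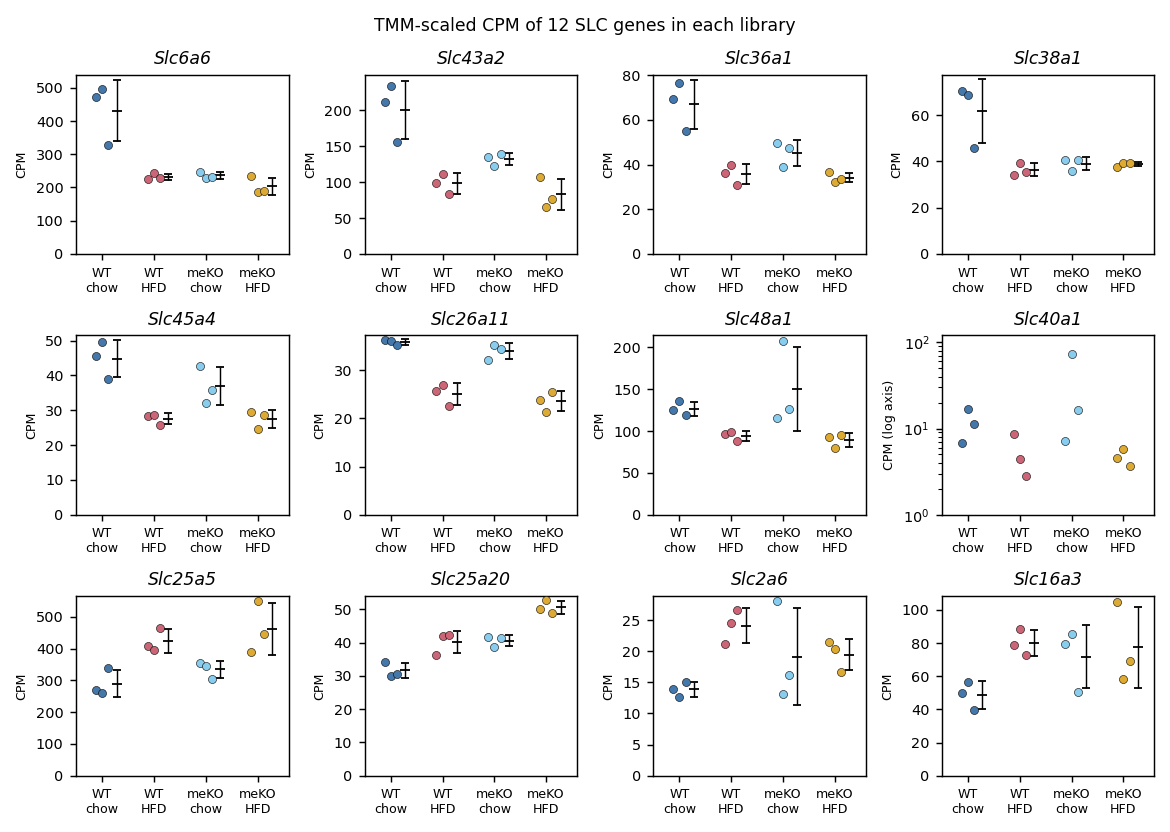
CPM of 12 SLC genes in each library by group, with the mean and SD of 3 libraries as a bar (not drawn for Slc40a1, which is on a log axis). Slc26a11, Slc43a2 and Slc45a4 separated chow from HFD in all libraries, Slc6a6 and Slc38a1 were high in WT chow alone, and 1 meKO chow library of Slc40a1 was at 73.5 CPM.

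Ion and pH carriers fell in 6 of 18 cases and rose in 0, with a median of -0.23 (3 lower, 1 higher and a median of -0.03 with the length and GC offsets). Among SLC genes above the threshold, the smallest adjusted p belonged to Slc26a11, a sulfate and anion carrier. It was at 36.3, 36.1 and 35.2 CPM in WT chow, 25.6, 27 and 22.5 in WT HFD, 32.1, 35.3 and 34.3 in chow-fed meKO and 23.9, 21.3 and 25.5 in HFD-fed meKO. Chow and HFD did not overlap, and the difference was -0.52 in WT and -0.52 in meKO. Over both, Slc26a11 fell by 0.52 ± 0.08 (edgeR, adjusted p = 0.0022). Slc9a9, a sodium/proton exchanger of endosomes, was at 77, 92.2 and 80.5 CPM in WT chow, 72.4, 59.3 and 58.5 in WT HFD, 68.3, 94.5 and 79.6 in chow-fed meKO and 56.6, 60 and 48.4 in HFD-fed meKO. The diets were apart within each genotype, and it fell by 0.47 ± 0.10 (adjusted p = 0.00766). Slc12a7 and Slc12a9, of the family of cation-chloride cotransporters, were also among those that fell.

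Metal carriers fell in 6 of 23 cases and rose in 0 (4 lower and 2 higher with the length and GC offsets), with a median of -0.05. Those that fell were ferroportin Slc40a1, the magnesium carrier Slc41a1, and Slc39a7, Slc39a8, Slc39a11 and Slc39a14 of the ZIP family, which bring zinc and other metals into the cytosol. In the Slc39 family 4 of 10 members fell, and 0 of 5 of the zinc exporters of Slc30 were called. With the length and GC offsets 3 of Slc39 fell and 2 of Slc30 rose, and the families were not tested against each other. Slc39a8 was at 9.25, 10.2 and 8.33 CPM in WT chow, 6.89, 6.4 and 7.4 in WT HFD, 8.19, 11 and 8.02 in chow-fed meKO and 7.08, 6.14 and 7.7 in HFD-fed meKO. Each chow library lay above each HFD library, and Slc39a8 fell by 0.40 ± 0.11 (edgeR, adjusted p = 0.0194). Slc11a1 and Slc11a2, carriers of divalent metals in the phagosome and endosome, were at means of 342 to 392 CPM and 36.8 to 38.7 CPM over the 4 groups and were not called.

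Of 8 carriers of iron, heme and related metals, 5 fell on HFD averaged over genotypes and 0 rose: Slc40a1, Slc48a1, Slc39a8, Slc39a14 and mitoferrin Slc25a37, which takes iron into mitochondria. Of all genes, 15.3% were called lower. With the length and GC offsets 4 fell, where 10.9% of all genes were called lower, with Slc39a14 and Slc25a37 lost and Slc25a28, the other mitoferrin, gained. The median log2 difference of the 8 was -0.38 as reported and -0.26 with both WT chow libraries of long transcripts left out. Slc40a1 was at 6.85, 17 and 11.3 CPM in WT chow, 8.64, 4.41 and 2.8 in WT HFD, 7.26, 73.5 and 16.2 in chow-fed meKO and 4.56, 5.72 and 3.69 in HFD-fed meKO. The library at 73.5 CPM, meKO chow replicate 2, is the one with Lyz2 at 69.3 CPM, and the diets overlapped in WT but not in meKO. Slc40a1 fell by 1.97 ± 0.58 (edgeR, adjusted p = 0.0321), and without that library the difference was -1.24 (adjusted p = 0.0201). The call was lost without any 1 of 7 other libraries, with adjusted p from 0.053 to 0.0814: WT chow replicates 1 and 2, WT HFD replicates 2 and 3, and the 3 meKO HFD libraries. Slc48a1, which moves heme out of the phagolysosome, was at 125, 136 and 119 CPM in WT chow, 96.5, 98.5 and 87.7 in WT HFD, 116, 208 and 127 in chow-fed meKO and 93.1, 79.4 and 95.3 in HFD-fed meKO. The same meKO chow library was the highest, and every chow library was above every HFD library. Slc48a1 fell by 0.59 ± 0.13 (adjusted p = 0.00815). Ferroportin, the heme carrier and resident macrophage markers all differ between kinds of macrophage, and the part of cell makeup was not tested.

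Mitochondrial carriers, all of family Slc25, divided evenly, with 4 of 30 higher and 4 lower and a median of 0.02. Slc25a5 was at 270, 260 and 338 CPM in WT chow, 408, 397 and 466 in WT HFD, 356, 346 and 305 in chow-fed meKO and 390, 550 and 445 in HFD-fed meKO. All HFD libraries were above all chow libraries, and Slc25a5 rose by 0.50 ± 0.10 (edgeR, adjusted p = 0.00646; 0.21 with the length and GC offsets). Its count is uncertain where the counting could share reads with its close relative Slc25a4 or with processed pseudogenes. Slc25a20, which brings acylcarnitines into mitochondria for fatty acid oxidation, was at 34.3, 30.1 and 30.7 CPM in WT chow, 36.3, 42 and 42.4 in WT HFD, 41.7, 38.8 and 41.3 in chow-fed meKO and 50.2, 52.8 and 49 in HFD-fed meKO. Within each genotype the diets did not overlap, and the rise was 0.33 ± 0.07 (adjusted p = 0.00886), or 0.17 with the length and GC offsets (adjusted p = 0.109). Slc25a25, an ATP-magnesium/phosphate carrier, also rose, by 0.33 ± 0.10 (adjusted p = 0.0286). The citrate carrier Slc25a1, which supplies cytosolic acetyl-CoA for lipid synthesis, was at 38.8, 37.1 and 43.2 CPM in WT chow, 33.5, 35.6 and 31.9 in WT HFD, 39.2, 45.3 and 40.8 in chow-fed meKO and 37, 24 and 30 in HFD-fed meKO. Its diets did not overlap, by a narrow margin of 37.1 against 37 CPM, and it fell by 0.35 ± 0.10 (adjusted p = 0.0212). Slc25a40, a mitochondrial glutathione carrier, fell by 0.44 ± 0.10 (adjusted p = 0.0102), without overlap, and Slc25a36 and Slc25a37 also fell.

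Sugar carriers fell in 2 of 9 cases and rose in 0 (2 lower and 2 higher with the length and GC offsets, the latter Slc2a6 and Slc37a2). Slc45a4, of a family of proton-coupled sugar carriers, was at 45.7, 49.7 and 39.1 CPM in WT chow, 28.3, 28.7 and 25.8 in WT HFD, 42.8, 32.1 and 35.8 in chow-fed meKO and 29.5, 24.5 and 28.5 in HFD-fed meKO. Its diets did not overlap, and it fell by 0.56 ± 0.09 (edgeR, adjusted p = 0.00415). Slc2a8, an intracellular hexose carrier, fell by 0.28 ± 0.10 (adjusted p = 0.0483). The glucose carrier Slc2a1 stood at group means of 29.4, 26.7, 26.8 and 25.7 CPM and was not called. Slc2a6, a hexose carrier of the lysosome, was at 14, 12.6 and 15 CPM in WT chow and 21.1, 24.5 and 26.7 in WT HFD, without overlap, but at 28, 13.2 and 16.2 in chow-fed meKO and 21.5, 20.3 and 16.6 in HFD-fed meKO, which overlapped. It was called in WT, with a rise of 0.79 ± 0.22 (adjusted p = 0.0281), and in the averaged comparison only with the length and GC offsets. Slc16a3, the lactate exporter of glycolytic cells, had the same form: 50.1, 56.4 and 39.6 CPM in WT chow and 78.6, 88.5 and 73 in WT HFD, against 79.7, 85.6 and 50.2 in chow-fed meKO and 105, 58.4 and 69.3 in HFD-fed meKO. It rose by 0.72 ± 0.22 in WT (adjusted p = 0.0393), was called in the averaged comparison with those offsets, and differed by 0.11 in meKO, which did not pass. The interaction was not called for Slc2a6 (-0.77 ± 0.31, adjusted p = 0.791) or for Slc16a3 (-0.60 ± 0.32, adjusted p = 0.797).

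Organic acid, cation and vitamin carriers fell in 4 of 20 cases and rose in 1, with a median of -0.09 (2 lower, 2 higher and a median of 0.03 with the length and GC offsets). Beside Slc48a1, those that fell were the vitamin C carrier Slc23a2, the monocarboxylate carrier family member Slc16a13, and Slc46a3, a carrier of the lysosomal membrane. Slc46a3 was at 56.2, 55.9 and 74.1 CPM in WT chow, 53.5, 47.4 and 45.8 in WT HFD, 49.4, 54.8 and 61.5 in chow-fed meKO and 43, 46 and 41.5 in HFD-fed meKO. The diets were apart within each genotype, and it fell by 0.34 ± 0.09 (edgeR, adjusted p = 0.0168). The lactate and pyruvate carrier Slc16a1 stood at group means of 18.6, 19.7, 18.9 and 22.7 CPM and was not called. Slc10a3, a member of the bile acid carrier family, was at 21, 22.4 and 25.4 CPM in WT chow, 31.7, 31.9 and 31.9 in WT HFD, 27, 28.5 and 25.9 in chow-fed meKO and 30.1, 39.7 and 31.2 in HFD-fed meKO. Every HFD library was above every chow library, and it rose by 0.39 ± 0.09 (adjusted p = 0.00886).

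The lysosomal and vesicular class had 1 of 6 members lower and 1 higher (1 lower and 2 higher with the length and GC offsets). Slc17a5 (sialin), the lysosomal exporter of sialic acid, was at 100, 94 and 97.3 CPM in WT chow, 74.5, 73.1 and 76.4 in WT HFD, 101, 89 and 105 in chow-fed meKO and 76.8, 68.2 and 90.4 in HFD-fed meKO. The WT diets were apart, 1 meKO HFD library reached into the chow range, and Slc17a5 fell by 0.35 ± 0.08 (edgeR, adjusted p = 0.00941). Slc66a2, of the PQ-loop family, rose by 0.31 ± 0.08 (adjusted p = 0.014), from group means of 37.3 and 43.7 CPM on chow in WT and meKO to 51.8 and 48.5 on HFD. Slc15a3 was at means of 299, 323, 334 and 364 CPM and was not called. Among nucleotide sugar carriers, which load the Golgi for glycosylation, Slc35a5 was the 1 of 5 that fell, by 0.42 ± 0.10 (adjusted p = 0.00976), and Slc35a4, which had the highest level per length of the class, stood at 65.2, 70.3, 69.5 and 76.6 CPM and was called only in other settings, with DESeq2, voom with quality weights or the length and GC offsets. Among 4 nucleoside carriers Slc28a2, which takes up purine nucleosides with sodium, rose by 0.36 ± 0.12 (adjusted p = 0.0327), and its count is uncertain because of the similar gene Slc28a2b. The lysosomal nucleoside exporter Slc29a3 stood at 235, 197, 246 and 230 CPM and was not called. Neither of the 2 fatty acid carriers was called, and Slc27a1, a fatty acid transport protein, was at means of 104, 114, 115 and 129 CPM and was called higher with the length and GC offsets alone.

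Of genes that work beside SLC carriers, 59 of 76 on a list of other carriers, partner chains and regulators were present, and 4 rose and 9 fell on HFD averaged over genotypes, where 14.9% of all genes rose and 15.3% fell. Their calls were not followed through the other settings. Mpc2, a subunit of the mitochondrial pyruvate carrier, rose by 0.48 (edgeR, adjusted p = 0.0109), and Bsg, the chaperone of lactate carriers such as Slc16a3, by 0.33 (adjusted p = 0.0138). Nr1h3, a sterol-sensing nuclear receptor, rose by 0.52 (adjusted p = 0.00347), and Srebf2, which drives sterol synthesis, fell by 1.07 (adjusted p = 3.40e-04). Tfe3 and Mitf, 2 of the MiT/TFE factors, fell by 0.41 (edgeR, adjusted p = 0.015) and 0.32 (adjusted p = 0.0214), and Rragc, which links lysosomal amino acids to mTORC1, by 0.37 (adjusted p = 0.00673). In WT alone Tfe3 was called (-0.46, adjusted p = 0.0449), while Mitf (-0.29, adjusted p = 0.116) and Tfeb, another of these factors (-0.08, adjusted p = 0.627), were not. Among SLC genes with a promoter sequence, CACGTG was in 8 of 21 called lower in this comparison (38.1%), 0 of 5 called higher and 15 of 77 not called (19.5%). Of all listed genes with a promoter sequence, 12% held the letters, and their split by call is not given here. No relation between the letters and the calls or the factors was tested.

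In WT alone, 26 SLC genes were called between diets (19.1%), 8 higher and 18 lower, against 21.3% of all genes, 9.5% higher and 11.8% lower. With offsets for length and GC content the split was 13 higher and 10 lower, where 56.3% of all calls were higher. With library totals it was 4 and 27, where 31.3% of all calls were higher. Among called genes the largest falls were Slc43a2 (-1.03 ± 0.18, edgeR, adjusted p = 0.00853), Slc36a1 (-0.91 ± 0.14, adjusted p = 0.006), Slc6a6 (given above), Slc39a14 (-0.86 ± 0.25, adjusted p = 0.0307), Slc9a7 (-0.85 ± 0.23, adjusted p = 0.0264) and Slc38a1 (-0.77 ± 0.15, adjusted p = 0.0107). Slc9a7, an exchanger of the Golgi and endosomes, was at 9.87, 6.5 and 6.38 CPM in WT chow and 4.3, 3.75 and 4.57 in WT HFD, without overlap. The 8 called rises were Slc2a6, Slc16a3, Slc25a5, Slc28a2, Slc10a3, Slc66a2, Slc3a2 and Slc25a20, from 0.79 to 0.34. In WT 54 SLC genes had diets that did not overlap (39.7%, against 39.3% of all genes).

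In meKO alone, 0 SLC genes were called by edgeR, against 0.105% of all genes. At an unadjusted p under 0.05 there were 24 (15.9% of all genes were under it), and DESeq2 called 6 (4.41%, against 1.87% of all genes). The diets did not overlap in 32 SLC genes (23.5%, against 19.7% of all genes). Among SLC genes above the threshold, Slc26a11 had the smallest adjusted p in meKO (-0.52 ± 0.11, edgeR, adjusted p = 0.0832). Next came Slc48a1 (-0.75 ± 0.18, adjusted p = 0.123) and Slc9a9 (-0.55 ± 0.14, adjusted p = 0.14). The 2 diet comparisons share no library. Of the 26 SLC genes called in WT, 25 had the same sign in meKO (96.2%, against 94.9% of all genes called in WT), and the exception was Slc9a7. Over all 136, 107 had the same sign in both genotypes (78.7%, against 76.4% of all genes). In 19 SLC genes the diets did not overlap in either genotype, in the same direction (14%, against 10.4% of all genes). Those shares were close to the background. With voom and library quality weights the interaction called 2 SLC genes (1.47%, against 2.39% of all genes). By edgeR it called 0, against 0.0162% of all genes (10 at an unadjusted p under 0.05, where 6.13% of all genes lay). So no SLC gene was shown to respond differently to diet in meKO. Above the threshold, the smallest p of the interaction belonged to Slc38a1 (0.75 ± 0.20, edgeR, adjusted p = 0.773), Slc6a6 and Slc9a7 (0.91 ± 0.33, adjusted p = 0.773).

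**Figure D4:**
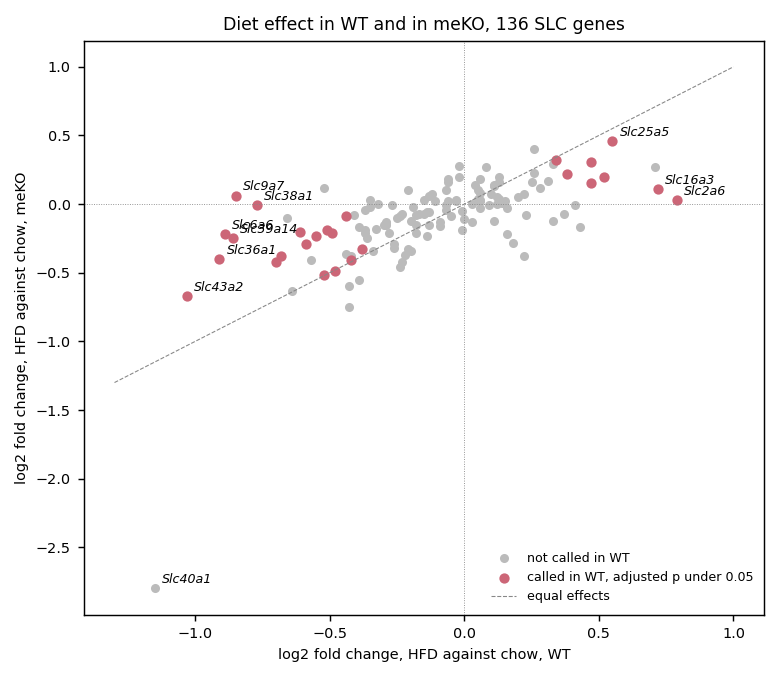
Log2 fold change on HFD against chow in WT (x) and in meKO (y) for 136 SLC genes, with those called in WT in red and equal effects as a dashed line. Slc38a1 and Slc9a7 were near 0 in meKO, Slc43a2 and Slc36a1 were below 0 in both genotypes, and Slc40a1 had the lowest value in meKO, -2.8.

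Many of these calls rested on single libraries and on WT chow. The counts that follow are of SLC genes alone, and shares of all genes for fits with 1 library left out are not given here. Calls over all genes also dropped where both WT chow libraries of long transcripts were left out, so these drops are not particular to SLC genes. Without WT chow replicate 1 or 2 the WT count went from 26 to 3 and 5, without WT chow replicate 3 to 47, and without WT HFD replicates 1, 2 or 3 to 6, 13 and 2. In the averaged comparison the count of 40 went to 21 without WT chow replicate 1, 22 without WT chow replicate 2, 26 without WT HFD replicate 1, 21 without WT HFD replicate 3, 22 without meKO HFD replicate 2, 26 without meKO HFD replicate 3 and 22 without meKO chow replicate 3. Leaving out both WT chow libraries of long transcripts leaves 1 WT chow library, whose spread is assumed to be that of the other groups. Effect sizes alone are therefore given for that setting. The median log2 difference of SLC genes was 0 there in WT and -0.03 in the averaged comparison, against -0.13 and -0.10 as reported. In that averaged comparison Slc43a2 differed by -0.67, Slc36a1 by -0.52, Slc26a11 by -0.51, Slc45a4 by -0.47 and Slc46a3 by -0.47. Apart from that setting, Slc36a1 and Slc6a6 passed in WT in all 22 others, while the other 24 WT calls, the rises of Slc2a6 and Slc16a3 included, were lost in at least 1. In the averaged comparison 16 SLC genes passed in all 21 others: Slc10a3, Slc25a5 and Slc66a2 higher, and Slc6a6, Slc7a8, Slc9a9, Slc17a5, Slc25a40, Slc26a11, Slc35a5, Slc36a1, Slc38a10, Slc43a2, Slc45a4, Slc46a3 and Slc48a1 lower. Spearman's rho between the diet difference of SLC genes and their transcript length, across 136 genes, was -0.42 in WT, -0.21 in meKO and -0.36 in the averaged comparison.

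**Figure D5:**
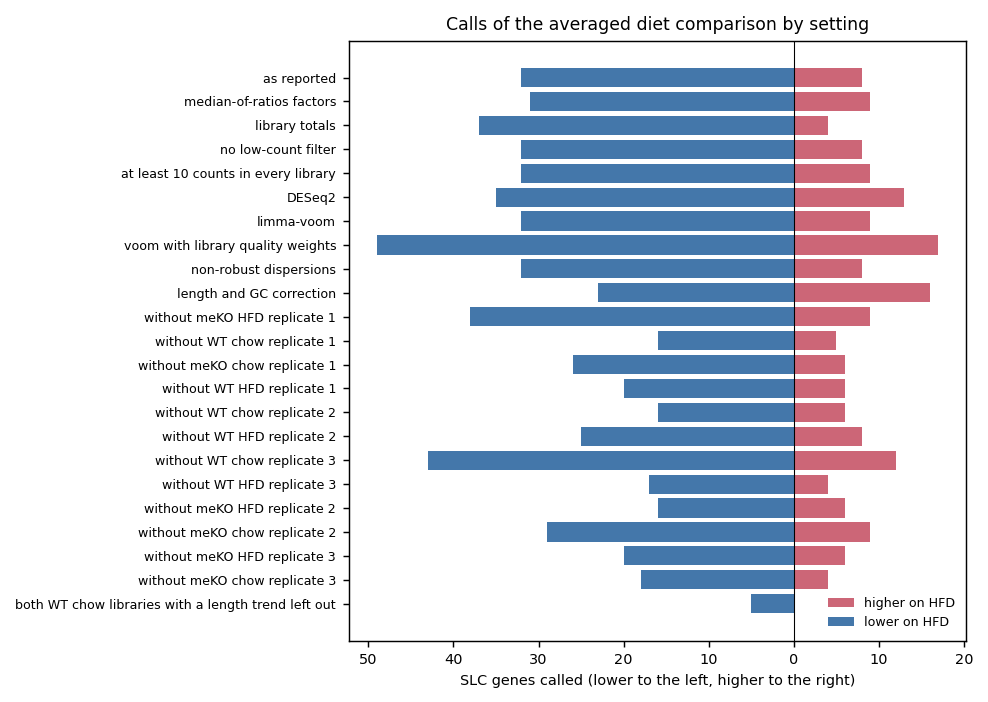
Number of SLC genes called in the averaged diet comparison under each setting, lower on HFD to the left and higher to the right. The count was 40 as reported, 55 without WT chow replicate 3 and 5 with both WT chow libraries of long transcripts left out.

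The genotype comparisons asked which carriers differ between meKO and WT. They share libraries with the diet comparisons, and WT chow enters both. On chow, 1 SLC gene was called, against 0.081% of all genes: Slc6a6, lower in meKO by 0.87 ± 0.14 (edgeR, adjusted p = 0.0484). Its libraries are given above, and every meKO chow library (230 to 248 CPM) was below the lowest WT chow library (327 CPM). The call held in 8 of 22 other settings, with adjusted p from 2.70e-05 to 0.244. It was lost without WT chow replicate 1 (-0.78, adjusted p = 0.19) or 2 (-0.75, 0.241), without WT HFD replicate 1 (0.11), 2 (0.0834) or 3 (0.083), without meKO chow replicate 1 (0.132), 2 (0.231) or 3 (0.083) and without meKO HFD replicate 2 (0.0503) or 3 (0.0714). With both WT chow libraries of long transcripts left out it was -0.47. Spearman's rho of the genotype difference on chow with transcript length over SLC genes was -0.59. The groups did not overlap in 22 SLC genes (16.2%, against 17.1% of all genes), among them Slc38a1 (-0.66 ± 0.14, adjusted p = 0.0794), Slc36a1 (-0.57 ± 0.14, 0.0977) and the equilibrative nucleoside carrier Slc29a1 (0.39 ± 0.10, 0.0964). Without WT chow replicate 3, 19 SLC genes were called, and the share of all genes in that fit is not given here.

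On HFD, 0 SLC genes were called between genotypes by edgeR, against 0.081% of all genes, and 0 with DESeq2, against 0.43%. At an unadjusted p under 0.05 there were 6, where 4.56% of all genes lay. The groups did not overlap in 15 SLC genes (11% against 10.3%). Averaged over diets, 0 were called against 0.17% of all genes, with 24 at an unadjusted p under 0.05, where 17.7% of all genes lay, and 7 called by DESeq2 (5.15%, against 3.03% of all genes). Slc6a6 (-0.53, adjusted p = 0.0555) and Slc25a20 (0.34 ± 0.07, adjusted p = 0.08) came nearest. Slc29a1 was the 1 SLC gene (0.735%, against 0.421% of all genes) whose 6 WT and 6 meKO libraries did not overlap. It was at 77.2, 79.1 and 86.3 CPM in WT chow, 96.2, 93.3 and 94.3 in WT HFD, 117, 101 and 101 in chow-fed meKO and 101, 103 and 96.4 in HFD-fed meKO. The gap between genotypes was 96.2 against 96.4 CPM, and the difference of 0.24 ± 0.07 did not pass (adjusted p = 0.149). Slc7a2, an arginine carrier, was among the SLC genes with the smallest p on HFD (-0.68 ± 0.26, adjusted p = 0.978), as was the zinc carrier Slc39a13 (0.36 ± 0.12, adjusted p = 0.856).

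Slc25a20 lies on chromosome 9, from 108662088 to 108684641 in GRCm38, with Slc26a6 (108853283 to 108913049) and Slc25a36 (97074961 to 97111157) as the other SLC genes within 10 Mb of Rpl29. Rpl29, a ribosomal protein gene, was at 67.2 to 130 CPM in WT chow, 6.51 to 6.89 in WT HFD and 171 to 322 in meKO libraries, so libraries of 1 genotype label differ there. In WT this difference ran along the diet label, and every WT library lay below every meKO library. A difference in background between the mice could not be told apart here from diet in WT or from genotype. Slc25a20 was at means of 31.7 ± 2.28, 40.2 ± 3.41, 40.6 ± 1.56 and 50.7 ± 1.94 CPM (SD, n = 3) in that order of groups, WT before meKO and chow before HFD. The mean was higher in meKO on both diets, by 0.36 ± 0.10 on chow (edgeR, adjusted p = 0.117) and 0.33 ± 0.10 on HFD (adjusted p = 0.651), and neither passed. Slc26a6 was at means of 11.8 to 12.9 CPM and was not called in any comparison as reported, but was called higher on HFD in WT and averaged over genotypes with the length and GC offsets (0.40, edgeR, adjusted p = 0.0435, and 0.27, adjusted p = 0.0325). Whether differences between the mice bear on Slc25a20, or on the diet and genotype calls given above, was not tested.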

How the data were processed

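The authors deposited whole-number counts per gene with Entrez identifiers and symbols. The build mm10 and DESeq2 are named in the submitters' processing notes; aligner, counter and strand setting are not given in the sources used here, so overlapping genes and near copies are uncertain. All 12 columns were matched to samples by title. The lists, the members and the rule for naming genes were chosen with earlier results of these data known. Every listed gene reached 0.501 CPM in 6 libraries. Counts were fitted over all 12339 genes with edgeR 4.0.16 in R 4.3.3 (TMM, filterByExpr, robust quasi-likelihood F test, 4 group means), with Benjamini-Hochberg adjustment over all genes and calls under 0.05. The SE is the log2 fold change over the square root of F. CPM are TMM-scaled, except for the membership threshold, which used library totals. The scripts were tested on simulated data. GENCODE vM21 gave lengths and positions, and RefSeq gave promoters. Of replicate pairs, all 12 differed beyond sampling noise (chi-square per degree of freedom at least 16.9).

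Named were: for diet in WT the called genes that rose or fell most, up to 10 each way; for the averaged diet up to 3 called genes per class with the smallest p; elsewhere up to 6 called, or the 3 with the smallest p; the highest gene of each class; 16 carriers listed by name; 3 genes on each side of the threshold; and those within 10 Mb of Rpl29. Slc12a7, Slc23a2, Slc25a3, Slc25a4, Slc25a11, Slc25a25, Slc25a28, Slc25a37, Slc29a1, Slc38a6, Slc38a10, Slc39a1, Slc39a7, Slc39a11 and Slc66a3 and the genes of the list of other carriers and regulators were named in addition after their values were seen. Classes were assigned by SLC family number, as a guide to substrate, and Slc4a1ap and Slc7a6os were set apart from them. A carrier of a substrate whose family was placed elsewhere is therefore not counted in the class of that substrate. Other settings were scaling by library totals or median-of-ratios factors, no filter, a minimum of 10 counts per library, DESeq2 1.42.0, voom with and without quality weights (limma 3.58.1), non-robust dispersions, length and GC offsets, only the groups compared, each library left out, and membership at 1 or 20 CPM. Leaving out both WT chow libraries with a length trend was chosen after seeing the data. A few carriers and details of the treatment are not reported here.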

Additional observations from a re-analysis of the deposited data

How the results depend on the processing

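Counts of SLC genes called moved by over 1.5 times in these cases. In WT the diet count was 26, and 71 with voom quality weights (52.2%, where 52% of all genes were called). Counts with both WT chow libraries of long transcripts left out are not given here, since 1 WT chow library remains in that fit. In meKO the diet count was 0, and 6 with DESeq2 (4.41%, against 1.87% of all genes) and 8 with quality weights (5.88% against 3.23%). Length and GC offsets gave 2 there (1.47% against 0.454%). Averaged over genotypes it was 40, and 66 with quality weights (48.5% against 51%) and 5 with both libraries left out. For genotype on chow it was 1, and 8 with DESeq2 (5.88% against 5.05%) and 31 with quality weights (22.8% against 32.8%). The count was 0 with library totals, limma-voom, non-robust dispersions or only the groups compared, where 0.0162% to 0.0406% of all genes were called. For genotype on HFD quality weights gave 1 in place of 0 (0.735% against 1.04%). For genotype averaged over diets DESeq2 gave 7 (5.15% against 3.03%) and quality weights 34 (25% against 31.1%) in place of 0. Length and GC offsets gave 1 for that comparison (0.735% against 0.203%). For the interaction quality weights gave 2 in place of 0 (1.47% against 2.39%). Leaving out 1 library at a time gave 2 to 47 for diet in WT, 0 to 2 for diet in meKO, 21 to 55 for the averaged diet, 0 to 19 for genotype on chow, 0 to 0 on HFD, 0 to 12 averaged over diets and 0 to 2 for the interaction. Shares of all genes are not given for the fits with 1 library left out, and the cause of these shifts was not tested. No paired analysis was possible because the labels give no replicate numbers that the groups share. Depth limits the low genes, among them Prkce with 25 to 151 counts per library.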
